A study of Mus musculus with 8 samples.

Results

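The 10 genes described here belong to ammonia, urea and glutamine metabolism. They were followed in livers of mice given either of a pair of adeno-associated viral vectors. The genes were taken by symbol from the deposited count table, which lists 31910 genes. The 5 urea cycle enzymes were Cps1, Otc, Ass1, Asl and Arg1, the periportal genes of amino acid breakdown were Gls2, Hal and Sds, and the pericentral genes were Glul and Oat. Counts above 0 were present for 9 of the 10 genes, and all 9 entered the test over 12358 genes. Oat was listed at 0 in all 8 libraries.

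The liver lobule is divided into zones. Blood enters beside the portal vein and leaves through the central vein, and hepatocytes along this path carry different enzymes. Periportal hepatocytes release ammonia from amino acids and glutamine and fix it in urea, with high capacity and low affinity. A thin layer of hepatocytes around the central vein carries glutamine synthetase, encoded by Glul, which takes up the ammonia that escapes the urea cycle. Glul depends on Wnt and beta-catenin signals from the central vein. The urea cycle genes respond to glucagon, glucocorticoids and protein intake, and fatty liver disease is known to affect ammonia handling.

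The study behind these libraries is about steatohepatitis in mice and a protein of bacterial origin with acetyl-CoA carboxylase as its binding partner. The 4 SA libraries came from livers of mice given AAV2/9-SA and the 4 Ctrl libraries from livers of mice given AAV2/9-Ctrl, and the tissue was frozen before RNA was taken. Its design text lists chow, 24 weeks of high-fat feeding, and 16 weeks on food rich in fat and cholesterol plus sugared water, with a tail vein dose of 4.8e10 vector genomes after 7 weeks of feeding. The labels used here do not give the diet, strain, age or sex behind each library, and no promoter is named for the vector in the sources used here. Library totals lay between 14114145 and 15922829 counts in 7 libraries, while SA 4 had 28184001. Ctrl 4 differed from the rest in its share of mitochondrially encoded transcripts, at 9.23% of counts against 3.55% to 4.87% in the other 7. The 10 listed hepatocyte markers, such as Alb and Apob, all passed the filter on low counts and summed to between 96342 and 127849 CPM in Ctrl and between 95459 and 116468 CPM in SA. Levels are given as CPM, the counts of a gene scaled to a common library size with TMM factors.

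None of the 9 tested genes differed between SA and Ctrl past the threshold, an adjusted p under 0.05 in edgeR's quasi-likelihood test. The background over all genes was low as well, with 0.0162% of the 12358 genes past it, 0.00809% higher and 0.00809% lower in SA. At an unadjusted p under 0.05 there were 0 of the 9, against 6.21% of all genes. DESeq2 also called 0 of the 9, where it called 0.421% of the 14724 genes to which it gave an adjusted p. For every one of the 9 genes the SA and Ctrl values overlapped, against 3.12% of all genes with no overlap. Of the 9 fitted differences 6 were positive and 3 negative, with a median log2 fold change of 0.05, against -0.0073 over all tested genes. Over all tested genes 48.7% of the fitted differences were positive.

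The intervals show how large a difference the 8 libraries leave room for. The lowest bound of the 95% intervals was 0.595-fold, for Glul, and the highest was 1.56-fold, for Hal. Each of the 9 genes therefore had an interval that contained no change and ended within these bounds. The largest positive fitted values belonged to Hal and Arg1 and the most negative to Glul. The liver was measured in bulk, so fewer cells of a zone and less RNA per cell cannot be told apart.

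**Figure D1:**
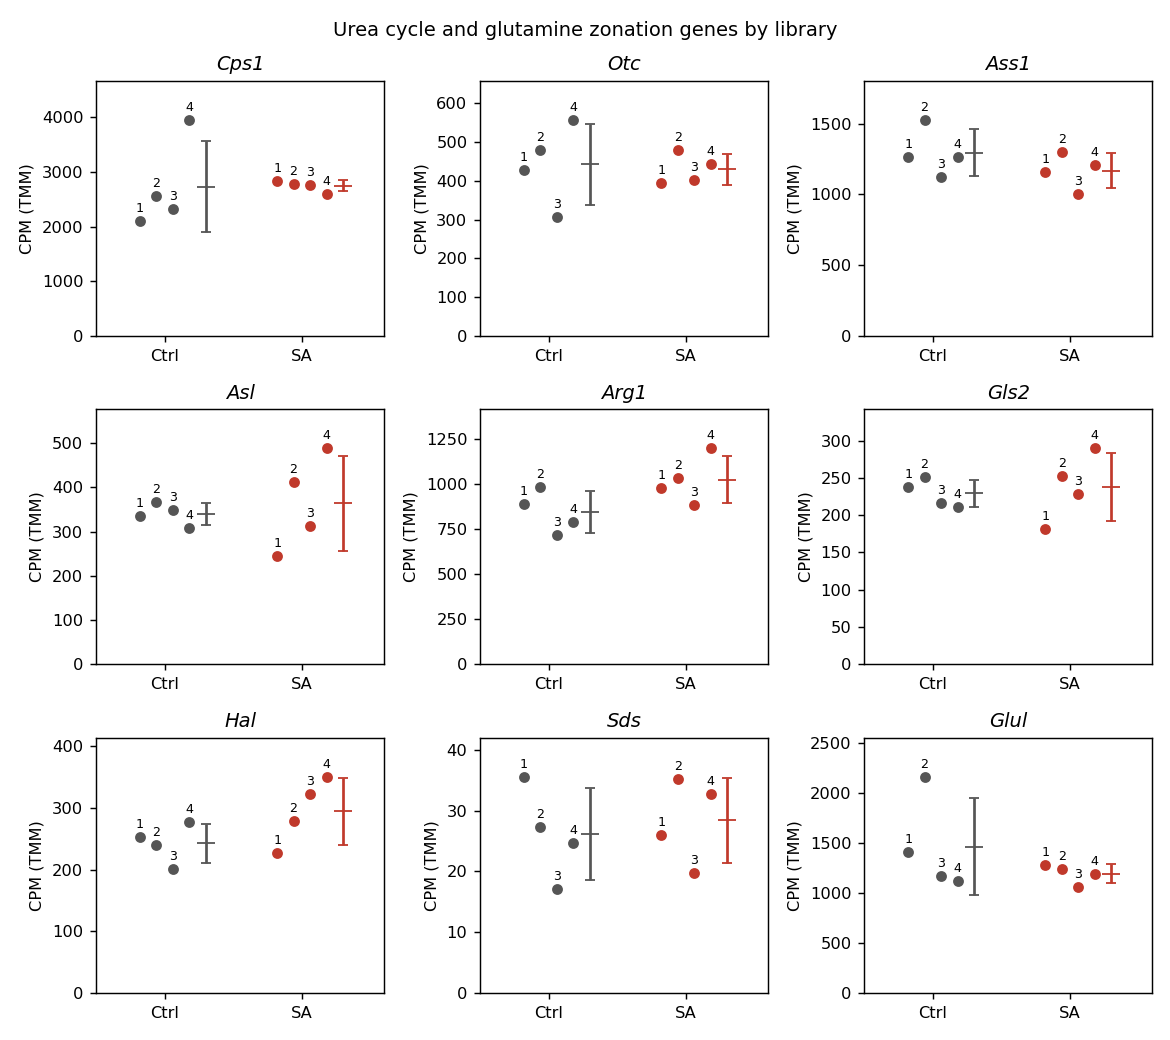
TMM-scaled CPM of the 9 tested genes, 1 point per library numbered by replicate, with the mean and SD of each group (n = 4) to its right. The groups overlap in each panel, Cps1 stands highest in Ctrl 4 at 3947 CPM and Glul stands highest in Ctrl 2 at 2164 CPM.

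Cps1 encodes carbamoyl phosphate synthetase, the mitochondrial enzyme that commits ammonia to the urea cycle. Its level was 2095, 2557, 2320.1 and 3947 CPM in Ctrl 1 to 4 and 2838, 2776, 2763 and 2600.5 CPM in SA 1 to 4. The SA libraries were close together, with a coefficient of variation of 3.70%, and the Ctrl libraries were spread on both sides of them, at 30.5%. The log2 ratio fitted by edgeR was 0.0077 ± 0.20 (SE; adjusted p = 0.997), and it was -0.00093 with RLE factors. The highest Ctrl value was in Ctrl 4, the library with the high mitochondrial share. Without Ctrl 4 all 4 SA libraries lay above the other 3 Ctrl libraries, where 9.19% of the 12496 genes then tested had no overlap. The log2 fold change of Cps1 was then 0.23 (edgeR, adjusted p = 0.617, against 0.617 to 0.9998 over its 20 alternatives). With the mitochondrial share as a covariate it was 0.14, and the part of that share in the Cps1 values was not tested further.

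Otc encodes ornithine transcarbamylase, which joins carbamoyl phosphate to ornithine in the mitochondrion. Otc was at 428, 479, 308 and 557 CPM in Ctrl 1 to 4 and at 394, 481, 404 and 443 CPM in SA 1 to 4. As with Cps1, Ctrl 4 was the highest library and the SA libraries lay inside the Ctrl range. The log2 ratio fitted by edgeR was -0.04 ± 0.18 (SE; adjusted p = 0.996), and 0.08 without Ctrl 4.

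The cytosolic steps of the cycle are carried by Ass1, argininosuccinate synthetase, and Asl, argininosuccinate lyase. Ass1 was at 1265, 1526, 1125 and 1264 CPM in Ctrl 1 to 4 and at 1155, 1302, 1004 and 1205 CPM in SA 1 to 4. Its highest library was Ctrl 2 and its lowest SA 3, with a fitted log2 difference of -0.15 ± 0.16 (SE; edgeR, adjusted p = 0.996). Asl was at 335, 366, 349 and 307 CPM in Ctrl and at 245, 412, 313 and 488 CPM in SA. Here the spread was wider in SA, with SA 1 below and SA 2 and SA 4 above all Ctrl libraries. The fitted value for Asl was 0.10 ± 0.20 (SE; edgeR, adjusted p = 0.996), and without SA 4, the deepest library, it was -0.08.

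Arg1 encodes liver arginase, which releases urea from arginine. It was at 888, 983, 719 and 789 CPM in Ctrl 1 to 4 and at 978, 1035, 883 and 1197 CPM in SA 1 to 4. All 4 SA libraries were above the Ctrl mean, but Ctrl 2 was above SA 1 and SA 3 and Ctrl 1 was above SA 3. The Ctrl mean was 845 ± 115 CPM and the SA mean 1023 ± 132 CPM (SD, n = 4), with a fitted log2 difference of 0.28 ± 0.16 (SE; edgeR, adjusted p = 0.939). Leaving out single libraries gave 0.18 to 0.36. Arg1 is also a gene of some macrophages, whose 16 listed markers summed to between 611 and 1097 CPM in Ctrl and between 843 and 1133 CPM in SA. In that list 13 genes were tested, 11 of them with positive values, where 48.7% of all genes had them, and Itgam was listed at 0. Their part in the Arg1 values was not tested.

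Gls2 encodes the liver glutaminase, which supplies periportal mitochondria with ammonia from glutamine. Gls2 was at 238, 251, 217 and 211 CPM in Ctrl 1 to 4 and at 181, 252, 228 and 289 CPM in SA 1 to 4. The lowest and the highest library were both SA, SA 1 and SA 4, as for Asl. The log2 ratio fitted by edgeR was 0.05 ± 0.16 (SE; adjusted p = 0.996), and -0.06 without SA 4.

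Hal encodes histidine ammonia-lyase, the first step of histidine breakdown. It was at 253, 240.2, 200.4 and 277 CPM in Ctrl 1 to 4 and at 226, 279, 322 and 351 CPM in SA 1 to 4. SA 2, SA 3 and SA 4 were above all Ctrl libraries, SA 2 by a small margin, and SA 1 was below 3 of them. The Ctrl mean was 243 ± 32.0 CPM and the SA mean 295 ± 54.1 CPM (SD, n = 4), with a fitted log2 difference of 0.28 ± 0.17 (SE; edgeR, adjusted p = 0.940). Leaving out single libraries gave 0.18 to 0.39. The groups were apart only when SA 1 was left out, where 6.4% of the 12524 genes then tested had no overlap.

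Sds encodes serine dehydratase, a periportal enzyme that turns serine into pyruvate and ammonia and rises with fasting and protein intake. Its level was 35.6, 27.4, 17.1 and 24.6 CPM in Ctrl 1 to 4 and 26.0, 35.2, 19.8 and 32.8 CPM in SA 1 to 4. The libraries varied 2.07-fold in all, the largest range among the 9 genes, with no separation by group. The log2 ratio fitted by edgeR was 0.12 ± 0.23 (SE; adjusted p = 0.996), and -0.03 without Ctrl 3.

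Glul, the pericentral glutamine synthetase gene, had the most negative fitted value. It was at 1406, 2164, 1166 and 1116 CPM in Ctrl 1 to 4 and at 1276, 1237, 1059 and 1194 CPM in SA 1 to 4. All SA libraries were below the Ctrl mean, yet only SA 3 was below all Ctrl libraries. The Ctrl mean was 1463 ± 484 CPM and the SA mean 1192 ± 94.7 CPM (SD, n = 4), with a fitted log2 difference of -0.30 ± 0.21 (SE; edgeR, adjusted p = 0.978). The value rested on Ctrl 2, without which it was -0.04.

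**Figure D2:**
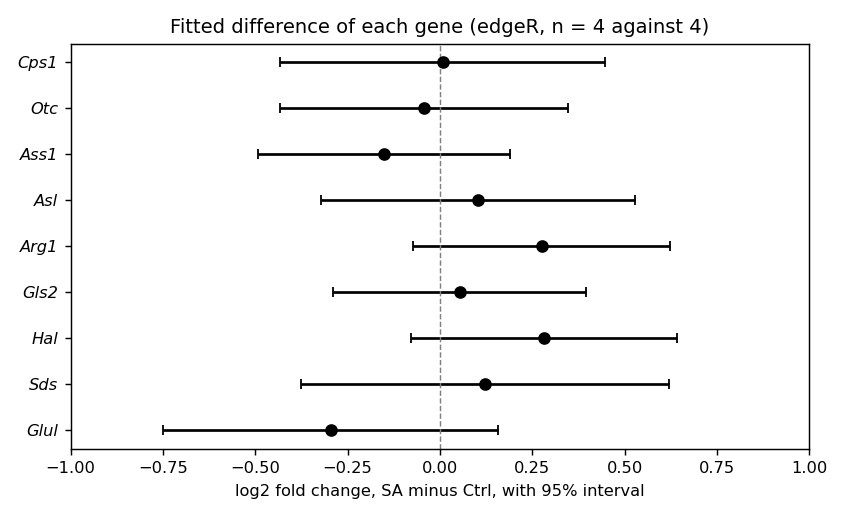
Fitted log2 fold change of each tested gene, SA minus Ctrl, with its 95% interval from edgeR (n = 4 in each group). All 9 intervals cross 0, and the fitted values run from -0.30 for Glul to 0.28 for Hal.

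RefSeq promoter sequences on GRCm38.p6 were at hand for 5 of the 10 genes: Otc, Ass1, Hal, Glul and Oat. Those of Hal and Glul are shown because these genes had the most positive and the most negative fitted value and mark opposite zones. Each is the 250 bases before the start site, read 5′ to 3′ on the plus strand, from chr10:93488518-93488767 for Hal and chr1:153899679-153899928 for Glul. Capitals mark CCAAT, the box bound by NF-Y, and CTTTGA, the core bound by TCF and LEF factors of the Wnt pathway.
Hal: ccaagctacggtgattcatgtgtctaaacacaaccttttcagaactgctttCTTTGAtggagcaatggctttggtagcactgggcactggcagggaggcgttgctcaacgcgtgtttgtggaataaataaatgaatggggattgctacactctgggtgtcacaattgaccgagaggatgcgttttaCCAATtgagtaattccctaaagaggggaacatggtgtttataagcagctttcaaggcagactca
Glul: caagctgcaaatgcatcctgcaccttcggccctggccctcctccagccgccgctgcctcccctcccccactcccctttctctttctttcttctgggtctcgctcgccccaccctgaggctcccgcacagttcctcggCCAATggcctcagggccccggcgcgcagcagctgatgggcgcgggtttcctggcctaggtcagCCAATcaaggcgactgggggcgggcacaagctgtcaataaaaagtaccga
Motifs were searched on both strands. Glul held CCAAT at 113 and 50 bases before the start site, and Hal held it at 64 bases. CCAAT was present in 33.8% of the 32851 promoter windows of this length. CTTTGA was present in 13.8% of windows, in Hal at 199 bases before the start site and not in the Glul window. The TATA motif TATAAA, on either strand, was in the Hal window and in 12.4% of all. The cyclic AMP response element TGACGTCA was in none of the 5 promoters and in 1.55% of all windows. A match is a description of the letters, and the RNA data do not bear on whether a factor binds there.

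To set both zones side by side within a library, the deviation of Glul from its mean log2 CPM was compared with the median deviation of the 8 periportal genes. Glul exceeded the periportal median by 0.15, 0.65, 0.14 and -0.19 in Ctrl 1 to 4 and by 0.08, -0.21, -0.21 and -0.43 in SA 1 to 4 on the log2 scale. The groups overlapped, since Ctrl 4 was beside the lower SA libraries and SA 1 near Ctrl 1 and Ctrl 3. SA 4 was the highest library for 4 of the 8 periportal genes and Ctrl 3 the lowest for 4. The 9 genes did not follow one order, as Cps1 and Otc were highest in Ctrl 4, Ass1 and Glul in Ctrl 2, Sds in Ctrl 1, and Asl, Arg1, Gls2 and Hal in SA 4.

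Levels of different genes were compared per length. Ass1 and Oat are left out of the FPKM order here, because their FPKM was split between high and low libraries; their Ctrl means were 579.99 and 373 FPKM. In the authors' deposited FPKM table, the mean of the Ctrl libraries was 756 FPKM for Glul, 746 for Arg1 and 653 for Cps1, with SDs of 170, 99.1 and 143 (n = 4), so that these 3 did not differ beyond their spread. Among the 8 genes other than Ass1 and Oat, Otc was next at 242 ± 32.6 FPKM and Asl at 180 ± 26.4 FPKM, with ranges that met without overlap. Sds was at 151 ± 46.5 FPKM and Gls2 at 120 ± 17.5 FPKM, overlapping each other, and Sds also overlapped Asl and the lowest Otc value. Hal was at 55.0 ± 9.51 FPKM, below every Gls2 value. In SA the means were 924 ± 135 FPKM for Arg1, 684 ± 25.1 FPKM for Cps1 and 639 ± 34.3 FPKM for Glul, with Ass1 at 711 FPKM over its split libraries. Counts per kilobase of the GENCODE transcript, where Ass1 is included, gave Sds another place. They also put the Ctrl mean of Arg1 above that of Glul, by less than the spread of Glul. The coefficient of variation of Glul across Ctrl was 33.1% in CPM. In FPKM too these genes did not differ beyond the spread. In Ctrl the counts were 764 CPM per kilobase for Ass1, 572 for Arg1, 524 for Glul, 491 for Cps1, 191 for Otc, 141 for Asl, 89.0 for Gls2, 45.6 for Hal and 20.3 for Sds. The place of Sds, above Gls2 and Hal in FPKM and below both in counts, thus depends on the table.

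The count and FPKM tables differed in level or library pattern for 3 of the 10 genes, Ass1, Oat and Sds. The fitted log2 differences of Otc and Asl also changed sign, each value being smaller than its SE. Otc went from -0.04 in counts to 0.0119 and Asl from 0.10 to -0.0463 with limma on log2(FPKM + 1). For Ass1 the FPKM was 108 in Ctrl 1, 50.0 in Ctrl 4 and 70.7 in SA 2, and between 839 and 1082 in the other 5 libraries. The Ass1 counts showed no such split, at 1265, 1264 and 1302 CPM in those 3 libraries. Across the 8 libraries the ratio of FPKM to CPM varied 24.3-fold for Ass1, against a median of 1.62-fold over 7940 genes, and 6.59% of these genes varied more. The fitted log2 difference of Ass1 turned from -0.15 in counts to 0.776 ± 1.26 in FPKM (SE; limma on log2(FPKM + 1), adjusted p = 0.999), and the counts were taken as its measure.

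Oat encodes ornithine aminotransferase, which sits beside glutamine synthetase around the central vein and passes ornithine toward glutamate. No count was available to compare its groups, and the deposited FPKM was the only measure. It was 38.2, 848, 576 and 28.5 FPKM in Ctrl 1 to 4 and 422, 68.8, 327 and 411 FPKM in SA 1 to 4. The 3 low libraries were Ctrl 1, Ctrl 4 and SA 2, the same 3 as for Ass1. On the log2(FPKM + 1) scale the difference was 0.70 ± 1.21 (SE, limma, adjusted p = 0.999), a difference smaller than its SE. The plain means went the other way, at 373 FPKM in Ctrl and 307 FPKM in SA. An absence of Oat RNA cannot be read from the 0 counts, since the widely expressed B2m was also listed at 0, with at least 1934 FPKM in every library. In all, 495 genes listed at 0 in the count table had FPKM above 0. In the GENCODE M21 annotation the whole Oat gene lies inside the Fgfr2 gene on the same strand. The sources used here do not say which annotation the authors counted against, and the part of this overlap was not tested.

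Sds differed in level between the tables. Its counts amounted to 20.3 CPM per kilobase in Ctrl on the 1288-base GENCODE transcript, while the FPKM was 151. The ratio of FPKM to CPM per kilobase had a median of 7.36 over the 8 libraries for Sds and of 1.24 to 1.50 for the other 8 tested genes. Between libraries this ratio varied 2.48-fold for Sds, and 1.33-fold to 1.49-fold for the 7 genes other than Sds and Ass1. Sds overlaps Plbd2 and the antisense model Gm15690 on the opposite strand, and the library kit is not described as strand-specific. Glul overlaps Teddm2 and Gls2 overlaps Spryd4, also on the opposite strand. On the same strand Glul overlaps the miRNA gene Mir8114 by 93 bases. By gene span the opposite-strand overlaps were 285 bases for Glul and 97 for Gls2, against 651 with Plbd2 and 1062 with Gm15690 for Sds. The counts of Sds, Glul and Gls2 are uncertain in this respect, and the part of the overlaps in them was not tested. The median ratio of FPKM to CPM per kilobase was 7.36 for Sds, 1.50 for Glul and 1.34 for Gls2. The FPKM gave Sds a log2 difference of 0.14 ± 0.29 (SE; limma on log2(FPKM + 1), adjusted p = 0.999), close to the 0.12 of the counts.

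**Figure D3:**
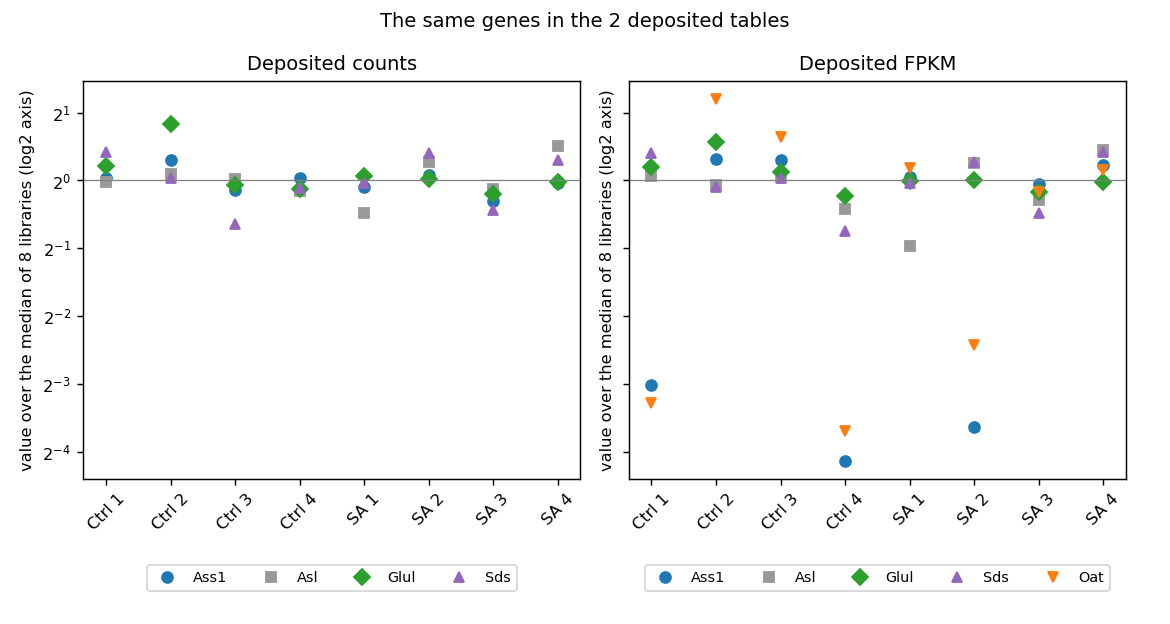
Each gene's value in a library over its median of the 8 libraries, from deposited counts (left, CPM) and from deposited FPKM (right), on a log2 axis. In the right panel Ass1 and Oat fall far below their medians in Ctrl 1, Ctrl 4 and SA 2, where the Ass1 counts do not, and Oat has no points on the left because it is listed at 0.

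Genes that supply or export the intermediates of the urea cycle also gave no call in edgeR. Of 17 listed genes 16 were tested, Slc25a2 being listed at 0, 0 passed in edgeR, 7 had positive and 9 negative values, and the median log2 fold change was -0.03. Got1, the cytosolic aspartate aminotransferase, was the 1 gene of this list whose groups did not overlap. It was at 146, 138, 137 and 148 CPM in Ctrl 1 to 4 and at 85.2, 109.7, 78.4 and 99.3 CPM in SA 1 to 4, every SA library below every Ctrl library, as in 1.46% of all genes. The fitted log2 difference for it was -0.61 ± 0.14 (SE; edgeR, adjusted p = 0.342). DESeq2 called it lower in SA (adjusted p = 0.0173, against 0.0173 to 0.999 over 20 alternatives).

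Nags makes N-acetylglutamate, the obligate activator of the Cps1 enzyme. Its level was 59.2 ± 6.60 CPM across Ctrl and 69.5 ± 5.52 across SA (SD, n = 4), with overlap between the groups. The fitted log2 difference of Nags was 0.23 ± 0.13 in counts (SE, edgeR, adjusted p = 0.939). In FPKM it had the opposite sign, -1.13 ± 0.91 (SE, limma on log2(FPKM + 1), adjusted p = 0.999). Car5a, a mitochondrial carbonic anhydrase that supplies bicarbonate, had a log2 fold change of 0.21. The mitochondrial ornithine carrier gene Slc25a15 had -0.15 and the aspartate-glutamate carrier gene Slc25a13 had -0.05, neither past the threshold. Of the paralogs, Arg2 had at most 1.31 CPM and Sdsl at most 13.2 CPM in any library.

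Wider amino acid breakdown gave a median of 0.00026 over 35 tested of 37 listed genes, with 18 positive, 17 negative and 0 past the threshold in edgeR, and Hpd and Aldh4a1 listed at 0. The 3 members with the smallest p were Agxt2 at -0.44, Etnppl at 0.79 and Agxt at -0.56 on the log2 scale (edgeR, adjusted p = 0.662, 0.788 and 0.880). Etnppl, also on the periportal list, was at 25.9 and 54.5 CPM in SA 1 and SA 3 and at 103.3 and 116.7 CPM in SA 2 and SA 4, against 39.8 to 46.9 CPM in Ctrl. The 12 genes of ornithine, proline and polyamine metabolism had a median of -0.08 and 0 calls, with Aldh18a1 at -0.57, Srm at -0.15 and Amd1 at 0.18.

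Among 19 regulators of fasting and hormone response, 15 had positive values, where 48.7% of all genes did. Their median was 0.10, and 0 passed in edgeR. For 3 of them, Hnf4a, Fkbp5 and Crtc2, all SA libraries were above all Ctrl libraries, where 1.66% of all genes were. Hnf4a, a master transcription factor of hepatocytes that controls Otc among other urea cycle genes, was at 412, 399, 527.5 and 454 CPM in Ctrl 1 to 4 and at 527.9, 812, 674 and 720.1 CPM in SA 1 to 4. The groups nearly met, at Ctrl 3 and SA 1. For Hnf4a edgeR fitted a log2 ratio of 0.61 ± 0.17 (SE; adjusted p = 0.425). Fkbp5, a glucocorticoid-induced gene, was at 51.4 ± 18.8 CPM across Ctrl and 109 ± 38.0 across SA (SD, n = 4), with a fitted log2 difference of 1.09 ± 0.28 (SE; edgeR, adjusted p = 0.367). DESeq2 called Fkbp5 (adjusted p = 0.0316, against 0.0316 to 0.999 over 20 alternatives) and did not call Hnf4a (adjusted p = 0.0687). Crtc2, a cyclic AMP coactivator, had 0.33 ± 0.13 (SE; edgeR, adjusted p = 0.697).

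Landmarks of both zones outside the 10 genes were tested beside them. The 18 periportal landmarks had a median of 0.03 with 10 positive and 8 negative values. The pericentral and Wnt list, which also holds parts of the beta-catenin pathway such as Axin1, had 25 tested genes. Their median was 0.03, with 13 positive and 12 negative values. Both lists had 0 past the threshold in edgeR. The periportal genes with the smallest p, beside Etnppl, were the apolipoprotein gene Apoa4 at -1.60 and Aldh1b1 at -0.84 (edgeR, adjusted p = 0.367 and 0.551), and both had overlapping groups. In the pericentral and Wnt list Nr1i3 and Axin1 had all SA libraries above all Ctrl libraries. Nr1i3, the nuclear receptor CAR, went from 10.4 ± 2.46 CPM across Ctrl to 18.4 ± 2.37 across SA (SD, n = 4), with a fitted log2 difference of 0.82 ± 0.19 (SE; edgeR, adjusted p = 0.342), and passed with DESeq2 (adjusted p = 0.0419, against 0.0419 to 0.999 over 20 alternatives). Axin1, a scaffold of the beta-catenin destruction complex, had 0.34 ± 0.15 (SE; edgeR, adjusted p = 0.800), and Aldh3a2 had -0.30.

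A list of central vein and sinusoid endothelial genes, Wnt signals and their receptors had a median of -0.0012 over 12 tested genes with 0 calls in edgeR. Rspo3, which amplifies Wnt signals at the central vein, was at 7.99 ± 2.21 CPM across Ctrl and 5.49 ± 1.56 across SA (SD, n = 4), and Wnt9b was at 1.91 ± 0.680 CPM across Ctrl and 2.77 ± 0.461 across SA. The fitted log2 values were -0.54 for Rspo3, 0.52 for Wnt9b and -0.38 for Selp. None of the 3 passed, and their groups overlapped.

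**Figure D4:**
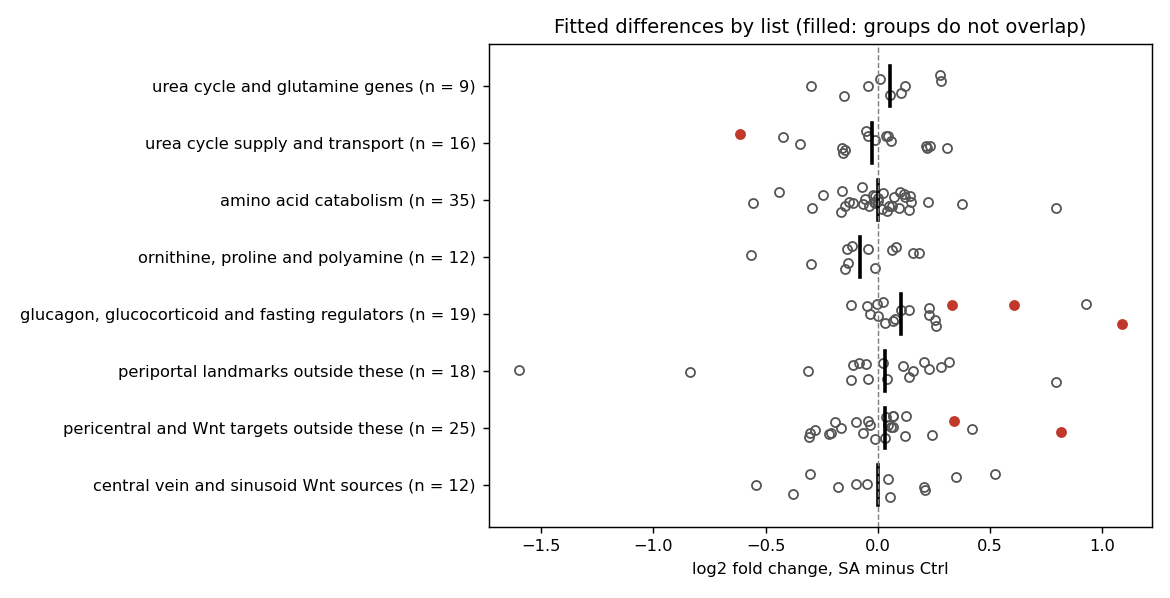
Fitted log2 fold change, SA minus Ctrl, of every tested gene among the urea cycle and glutamine genes and in the companion lists of metabolism, regulation and zonation (cell type markers are not drawn), with the list median as a black bar and genes whose groups do not overlap filled in red. The medians drawn lie between -0.08 and 0.10, and the filled points are Got1, Hnf4a, Fkbp5, Crtc2, Nr1i3 and Axin1.

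Markers of other cells were summed in each library. Stellate and fibroblast markers summed to between 330.01 and 825 CPM in Ctrl and between 267 and 334 CPM in SA. Of the 8 tested genes 8 were negative, where 48.7% of all genes were positive, and Lrat was listed at 0. At an unadjusted p under 0.05 in edgeR there were 6, against 6.21% of all genes. Among them were Col3a1 at -1.58, Col1a1 at -2.04 and Acta2 at -1.57. For 2 of the 8, Acta2 being 1, every SA library was below every Ctrl library, as in 1.46% of all genes. Bile duct markers summed to between 50.4 and 152 CPM in Ctrl and between 52.1 and 84.3 CPM in SA, with Epcam at -1.06, Krt19 at -1.26 and Spp1 at -0.89 on the log2 scale, and 1 marker was listed at 0. Red blood cell markers summed to 27.1 to 154 CPM in Ctrl and 44.4 to 207 CPM in SA, with Slc4a1 at 1.89, Hba-a1 at 0.62 and Hbb-bs at 0.43, and Alas2 was listed at 0. Of the 13 macrophage markers tested 11 had positive values, with a median of 0.17, and the 3 with the smallest p were the 2 negative ones, Ccr2 at -1.43 and Lyz2 at -0.54, and Clec4f at 0.45. Hepatocyte values were -0.27 for Apoa1, 0.23 for Apob and 0.16 for Hpx. Kidney and gut markers summed to at most 19.2 CPM, with Lrp2 at 0.85 and Lgals4 at 0.10, and pancreas markers to at most 19.03 CPM, with Cela1 at -0.19, and 6 and 7 of their genes were listed at 0. Several of these marker values were smaller in size when 1 library was left out. Without Ctrl 1, whose stellate and bile duct sums were the highest, Acta2 was -0.86, Krt19 -0.67, Spp1 -0.54 and Ccr2 -0.93. Leaving out single libraries gave 0.79 (without SA 3) to 2.83 (without Ctrl 3) for Slc4a1, which was 0.33 with limma-voom, 0.28 to 1.175 for Hba-a1 and 0.07 to 0.76 for Hbb-bs. None of the marker genes named here passed in edgeR, and the part of these cells in the values of the 10 genes was not tested.

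For 5 of the 10 genes, the 3 other genes whose log2 CPM followed them most closely over the 8 libraries were taken from 9212 candidates. Each r is the highest among these candidates and so describes the choice. For Glul these were Psmd9, Dbp and Mrpl36, with Pearson's r of 0.96, 0.96 and 0.94 and Spearman's rho of 0.93, 0.95 and 0.90, and r was 0.94, 0.86 and 0.92 without the 2 libraries farthest from the Glul median. For Cps1 they were Sec23a, Cldn12 and Optn (r = 0.98 each), for Gls2 they were Setd3, Sod2 and Gch1 (r = 0.99, 0.98 and 0.97), for Hal they were Hsdl2, Fech and Glb1 (r = 0.94, 0.93 and 0.91) and for Sds they were Iyd, Eral1 and Atp5pb (r = 0.94, 0.94 and 0.93). Without the 2 farthest libraries the lowest of these 15 values was 0.74, for Atp5pb with Sds. Setd3 and Sod2 ranked the 8 libraries exactly as Gls2 did.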

How the data were processed

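Messenger RNA was measured in 8 mouse liver libraries, 4 per vector. The deposited count table holds raw read counts per gene symbol, without normalization. The deposited FPKM table holds values computed by the authors, for 9265 rows. The submitters' processing notes name HISAT2, StringTie 2.2.1 and FastQC 0.19.7, and both GRCm39 and mm10 without a role. The sources used here give neither the counting program nor its annotation, and coordinates are printed only for promoters.

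Counts were tested with edgeR 4.0.16 in R 4.3.3 (filterByExpr, TMM factors, quasi-likelihood F test, Benjamini-Hochberg adjustment over 12358 genes), 4 SA against 4 Ctrl, without a block. Each SE is the absolute log2 fold change over the square root of F. Alternatives used DESeq2 1.42.0, limma 3.58.1 and the changes listed in the closing section. The fit was tested on simulated counts. Same-numbered libraries did not deviate together. No pair of libraries agreed within sampling noise. Since no label states that each library is another animal, the p-values reflect only how these samples vary, which may be technical.

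The 10 genes, the 14 companion lists and the naming rule were chosen with earlier results of these data known. Named were the 10 genes, each list's called genes and 3 smallest p-values, paralogs Arg2 and Sdsl, the urea cycle genes Nags, Slc25a15, Slc25a13 and Car5a, and, for 6 of the 10 genes, the 3 genes closest in log2 CPM among those with at least 5 CPM on average, leaving out unnamed gene models, Rik clones and pseudogenes. Oat, 1 of those 6, could not be matched. B2m was named after its values were seen, as an example of a gene listed at 0. Some genes that this rule takes in are not reported here.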

Additional observations from a re-analysis of the deposited data

How the results depend on the processing

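Each of the 9 tested genes was refitted under 20 alternatives, 180 values in all. None was called, the smallest adjusted p being 0.514 (Hal), and 160 kept their direction. Arg1, Hal and Glul kept theirs in all 20. With RLE factors Cps1 was -0.00093. With limma on log2(FPKM + 1), with or without the filter, Otc was 0.0119, Ass1 0.776 and Asl -0.0463, and Nags -1.13, Slc25a13 0.0120 and Lgals4 -0.483; with log2(FPKM + 0.1) they were 0.0119, 0.780, -0.0471, -1.32, 0.0170 and -0.559. With the mitochondrial share as a covariate Otc was 0.0608 and Slc25a13 0.0264. The cause of these reversals was not tested, except that the FPKM of Ass1 was low in 3 libraries where its counts were not.

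Leaving out each library in turn gave ranges of -0.105 to 0.232 for Cps1, -0.181 to 0.0794 for Otc, -0.0784 to 0.255 for Asl, -0.0638 to 0.166 for Gls2 and -0.0347 to 0.2998 for Sds. Among companion genes it gave -0.158 to 0.0525 for Slc25a13, -0.398 to 0.00309 for Sdsl, -0.490 to 0.132 for Cela1 and -0.0785 to 0.285 for Lgals4. Over all genes it gave 0 to 13 higher and 0 to 6 lower, against 1 and 1. The extremes were without Ctrl 4, with 0 and 0, and without SA 1, with 13 and 6; there were 2 lower without Ctrl 2, and 0 lower without Ctrl 1, SA 2, SA 3 or SA 4. The 9 genes had 0 to 1 with separate groups: Cps1 without Ctrl 4 and Hal without SA 1. In these settings 9.19% of 12496 and 6.4% of 12524 tested genes were separate.

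Over all genes there were 3 higher and 5 lower without the low-count filter, 23 and 39 with DESeq2, 2 lower with limma-voom, 0 higher and 3 lower in each FPKM fit, and 0 lower with the mitochondrial covariate. With the replicate number as a block there were 5 lower, Apoa4 among them (edgeR, adjusted p = 0.0130), and 0 of the 9 genes. Same-numbered libraries deviated with correlations of -0.02, -0.02, 0.22 and -0.22, and libraries did not correlate best with their own number throughout, so the number was not taken as a pairing. Of the named companion genes, 16 of 823 refitted values reversed and 4 were called. The 9 genes had at least 17.1 CPM in every library, and Sds had the fewest counts, 284 in Ctrl 3 to 906 in SA 4.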
